A study of Mus musculus with 114 samples.

Results

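The 10 genes described here encode the enzymes of mitochondrial fatty acid oxidation: the carnitine palmitoyltransferases Cpt1a, Cpt1b and Cpt2, the acyl-CoA dehydrogenases Acadm, Acadl and Acadvl, the trifunctional protein subunits Hadha and Hadhb, the hydroxyacyl-CoA dehydrogenase Hadh and the thiolase Acaa2. They were taken by gene symbol, and all 10 were found among the 29132 genes measured. Expression was measured by RNA-seq of polyA RNA from isolated perigonadal adipocytes of 38 male C57BL/6J mice. From 6 weeks of age they received chow (CD) or a high fat diet (HFD) for 8, 20 or 34 weeks, with 6 mice per group except for 8 CD mice at 34 weeks. No allele or drug differed between the groups, and chow was the control at each time. The methods name alternative products for the control diet and do not say which mice received which. Mice were fasted for some hours before harvest. The adipocytes are the floating fraction of a collagenase digest, so RNA of other cells that float with them is measured too. In such bulk RNA, fewer cells of a type and less RNA per cell cannot be told apart.

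Fatty acids are activated to acyl-CoA and cross into mitochondria as acyl-carnitine. CPT1, on the outer mitochondrial membrane, makes the acyl-carnitine and is inhibited by malonyl-CoA, and CPT2 on the inner membrane turns it back into acyl-CoA. The acyl chain is then shortened in repeated cycles of dehydrogenation, hydration, a second dehydrogenation and thiolysis, and the electrons pass to the respiratory chain. White adipocytes are known mainly for storing fatty acids as triglyceride and releasing them, and oxidize little compared with brown adipocytes or muscle.

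The promoter sequence of the member that changed most with diet (Cpt1a), of both members that fell with HFD at 20 weeks (Cpt2 and Hadh) and of the stretch between the paired genes Hadha and Hadhb is given 5′ to 3′ (RefSeq, GRCm38.p6). Each stretch lies upstream of the transcript start that the RefSeq promoter table uses, and bases in exons of the GENCODE vM21 annotation were left out. For Cpt1a that start lies downstream of the first base of the gene, whose span includes a longer transcript, so the printed stretch is in an intron of that transcript. Capitals mark matches, on either strand, of the nuclear receptor half-site, the Sp1 motif, the CCAAT box or the NRF1 core, whose letters and frequencies follow the sequences.
Cpt1a, chr19:3323051-3323284, + strand: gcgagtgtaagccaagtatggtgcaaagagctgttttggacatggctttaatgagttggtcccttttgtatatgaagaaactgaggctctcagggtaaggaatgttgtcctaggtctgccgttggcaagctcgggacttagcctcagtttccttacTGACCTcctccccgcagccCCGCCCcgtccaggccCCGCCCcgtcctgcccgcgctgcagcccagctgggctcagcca
Cpt2, chr4:107923611-107923839, - strand: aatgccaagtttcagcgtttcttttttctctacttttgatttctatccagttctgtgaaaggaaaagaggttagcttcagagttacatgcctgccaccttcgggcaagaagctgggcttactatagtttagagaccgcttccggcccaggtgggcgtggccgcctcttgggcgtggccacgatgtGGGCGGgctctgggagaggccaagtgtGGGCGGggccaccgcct
Hadh, chr3:131272102-131272351, - strand: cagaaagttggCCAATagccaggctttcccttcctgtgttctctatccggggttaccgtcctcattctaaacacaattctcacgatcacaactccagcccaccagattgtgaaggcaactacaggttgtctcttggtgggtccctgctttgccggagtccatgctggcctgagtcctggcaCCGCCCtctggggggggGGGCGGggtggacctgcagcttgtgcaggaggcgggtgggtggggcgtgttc
Hadha to Hadhb, chr5:30155163-30155247, + strand: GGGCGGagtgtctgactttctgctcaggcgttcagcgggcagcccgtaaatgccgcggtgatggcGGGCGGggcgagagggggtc

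Hadha and Hadhb are read outward from the last of these stretches, Hadhb on the printed strand and Hadha on the other, and only 85 bases there lie outside the exons of both genes. In windows of 250 bases before to 50 after the start, which were given for 8 of the 10 genes (not Cpt1b and Acaa2), the nuclear receptor half-site AGGTCA was found at Cpt1a, Acadm and Acadvl and in 16.3% of all 32851 windows. The Sp1 motif GGGCGG was found at 6 of the 8 members, that is at Cpt1a, Cpt2, Acadl, Hadha, Hadhb and Hadh, and in 35.7% of all windows. CCAAT was found at Cpt1a and Hadh (37.4% of all windows) and the NRF1 core GCATGCGC at Acadm (2.71%). The TATA box TATAAA (13.6%), the extended half-site TCAAGGTCA (0.423%) and the pair of AGGTCA half-sites with 1 base between them (0.0396%) were in none of the 8 windows. These matches of letters describe the windows and are not shown to be bound.

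Each mouse had between 9275711 and 15480388 reads on genes, and the 6 HFD mice at 8 weeks were all deeper than the 6 CD mice of that time. Values are the authors' CPM, the reads of a gene scaled to a total of 1000000 per mouse, analysed as log2(CPM + 1), and 10343 genes with a mean above 2.0 on that scale were tested, among them 9 of the 10 members (Cpt1b did not pass). The floating fraction held high levels of adipocyte markers, with a summed level of 12 markers between 16880 and 69720 CPM, and none of them at 0. Markers of some other cell types rose with HFD: of 6 endothelial markers 6, 5 and 6 rose at 8, 20 and 34 weeks, and of 6 progenitor and fibroblast markers 5, 6 and 3. Of all genes tested 29.8%, 38.3% and 27.5% rose. The median summed level of mesothelial markers was higher in HFD at 8 and 20 weeks and lower at 34 weeks (18.6 against 28.1 CPM). That of skeletal muscle markers was higher at 20 weeks and lower at 8 and 34 weeks. No T or B cell marker passed the filter for testing. Of the macrophage markers, at 8 weeks 7 of 11 rose, at 20 weeks 8 and at 34 weeks 10, and their summed level ranged from 438 to 1723 CPM in CD and 1117 to 3177 CPM in HFD mice at 8 weeks, 1038 to 3341 and 4544 to 9288 CPM at 20 weeks and 1185 to 12800 and 5242 to 15720 CPM at 34 weeks. In 2 of the 8 CD mice at 34 weeks this level was within the HFD range. CPM values carry a shift with diet: the median log2 fold change over all genes tested was 0.11, 0.14 and 0.074 at 8, 20 and 34 weeks, and with TMM factors 0.0058, -0.071 and -0.012. The share of called genes that were higher in HFD was 66.3%, 67.1% and 63.6%, against 51.4%, 44.7% and 51.9% with TMM factors. For this reason the diet differences called for the members are also given relative to the median of all genes, and those of the other genes below are not.

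Per length of exon, the acyl-CoA dehydrogenases of long and medium chains were the highest members and Cpt1a the lowest of those tested. The length is that of all annotated exons of a gene merged, from 1516 bases (Acaa2) to 8730 (Hadha), and the order depends on it. In CPM not divided by length, Acadm (mean 585) and Hadh (457) were the highest. Hadha (322) and Hadhb (290) were then above Acadvl (269) and Acaa2 (162), and Cpt1a (121) was again the lowest of those tested. Acadl, the long-chain acyl-CoA dehydrogenase, had 187 ± 31.2 CPM per kb of exon (mean ± SD over 38 mice) and Acadm, the medium-chain acyl-CoA dehydrogenase, 149 ± 27.6. These were followed by Acaa2 with 107 ± 27.9, Acadvl with 100.2 ± 22.7, Hadh with 91.9 ± 18.0, Cpt2 with 61.6 ± 14.7, Hadhb with 44.0 ± 6.24, Hadha with 36.9 ± 5.75 and Cpt1a with 15.8 ± 8.60 CPM per kb. The order of Acadl, Acadm and Acaa2 held in 38 of 38 mice, as did that of Hadh above Cpt2 and of Hadha above Cpt1a. Acaa2 and Acadvl were within each other's spread, with Acaa2 above in 23 of 38 mice, and they changed order with the groups. Acaa2 was above in 0 of 6 CD mice at 8 weeks and at 20 weeks and in 5 and 6 of 6 HFD mice. At 34 weeks Acaa2 was above in 6 of 8 CD mice and in 6 of 6 HFD mice. Of the exon bases of Acadvl 42.9% are shared with Dvl2 on the opposite strand, and the strand setting of the counting was not given in the sources used here.

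**Figure D1:**
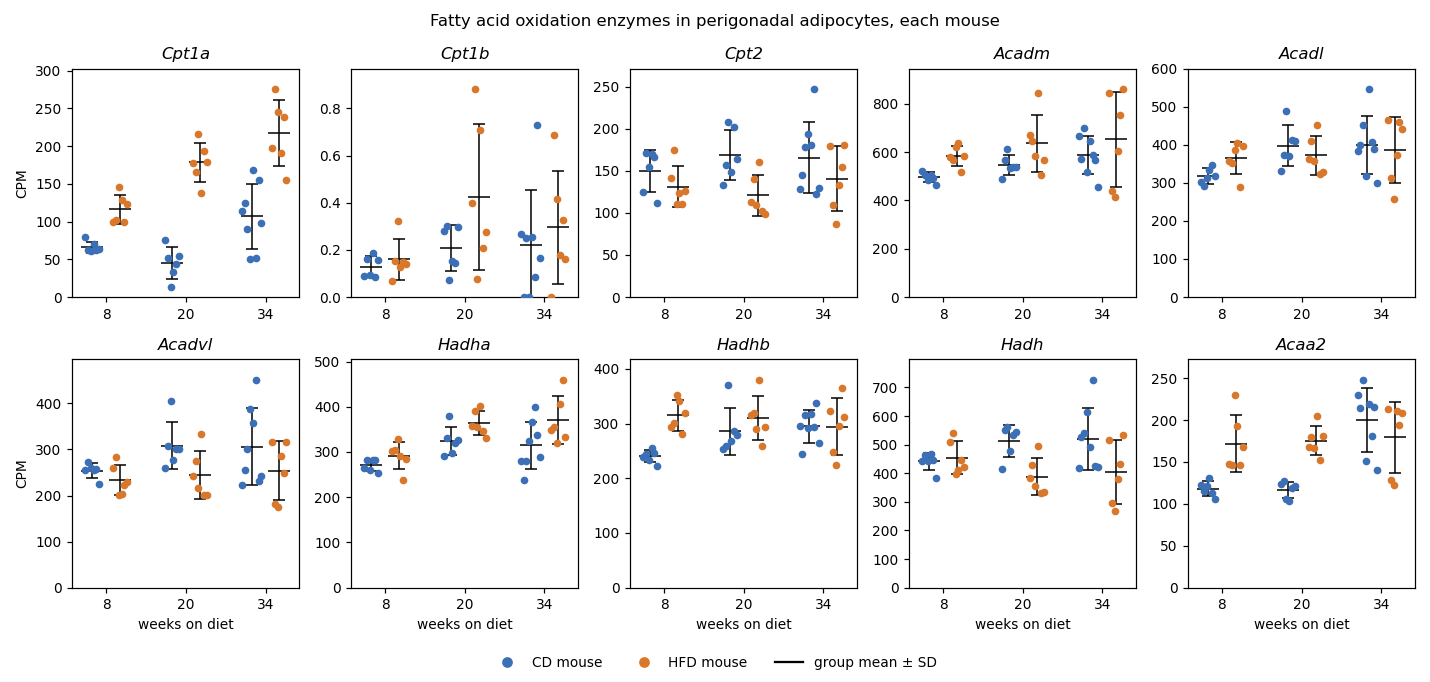
CPM of the 10 genes (y axis, each panel with its own scale from 0) by weeks on diet (x axis) in CD mice (blue) and HFD mice (orange), with bars for the group mean ± SD (n = 6, and 8 CD mice at 34 weeks). Cpt1a was higher in every HFD mouse than in every CD mouse at 8 and 20 weeks, and Cpt1b stayed under 1 CPM in all mice.

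After 8 weeks of HFD, 3 of the 9 members tested rose and 0 fell, against 29.8% of all genes tested that rose and 15.1% that fell. These were Cpt1a, the rate-limiting entry step, Hadhb, the trifunctional subunit that carries the long-chain thiolase, and Acaa2, the thiolase for shorter chains. Cpt1a (Entrez 12894, chr19:3322326-3385735) ranged from 60.3 to 79.3 CPM in CD mice with a median of 62.8, and from 99.1 to 145 CPM in HFD mice with a median of 113. The diets did not overlap. Its log2 fold change was 0.80 ± 0.27 (SE), a 1.74-fold higher level (limma, adjusted p = 0.0165), or 0.69 relative to the median of all genes.

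Hadhb (chr5:30155253-30184593) ranged from 223 to 254 CPM in CD mice (median 241) and from 281 to 353 CPM in HFD mice (median 310) at 8 weeks. All 6 HFD mice were above all 6 CD mice, and the log2 fold change was 0.39 ± 0.10 (limma, adjusted p = 0.00299), or 0.28 relative to the median of all genes. Acaa2 ranged from 106 to 131 CPM in CD mice (median 118) and from 147 to 230 CPM in HFD mice (median 158), again without overlap. Its log2 fold change was 0.52 ± 0.14 (limma, adjusted p = 0.00312), or 0.41 relative to the median of all genes. Groups without overlap and HFD above thus occurred in 3 of the 9 members tested, and in 15.7% of all genes tested. HFD below without overlap occurred in 0 of 9 members and in 7.14% of all genes.

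The other 6 members were not called at 8 weeks, with log2 fold changes between -0.19 (Cpt2) and 0.23 (Acadm). Acadm (chr3:153922353-153944643) was above all CD mice in 5 of 6 HFD mice, with 464 to 523 CPM in CD and 516 to 639 CPM in HFD mice, and its 95% interval ran from -0.045 to 0.51 on the log2 scale. Hadha, the trifunctional subunit with the hydratase and long-chain hydroxyacyl-CoA dehydrogenase, had a log2 fold change of 0.10 with an interval from -0.10 to 0.30, and of -0.0058 with TMM factors. Hadh, the dehydrogenase for shorter hydroxyacyl chains, had 0.036, which was -0.071 with TMM factors.

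After 20 weeks of HFD, 5 of the 9 members tested were not called. Cpt1a and Acaa2 rose (2 of 9, against 38.3% of all genes tested) and Cpt2 and Hadh fell (2 of 9, against 18.7%). The count that fell was near the share of all genes, and the count that rose was below it. Cpt1a ranged from 13.5 to 75.8 CPM in CD mice (median 47.8) and from 138 to 216 CPM in HFD mice (median 178). The gap between the lowest HFD and the highest CD mouse was the widest of the 3 times. The log2 fold change was 2.11 ± 0.27, a 4.31-fold higher level (limma, adjusted p = 1.86e-07), or 1.97 relative to the median of all genes. The lowest CD mouse, mouse 3, had 13.5 CPM and the next lowest 33.15 CPM. As single mice were left out the log2 fold change ranged from 1.81 to 2.29 and stayed called. Acaa2 ranged from 104 to 127 CPM in CD mice (median 120.1) and from 152 to 205 CPM in HFD mice (median 174) without overlap, with a log2 fold change of 0.58 ± 0.14 (limma, adjusted p = 0.000584), or 0.45 relative to the median of all genes. Cpt1a and Acaa2 were the 2 of 9 members with HFD above CD without overlap, which 26.1% of all genes tested showed. None of the 9 was below without overlap, which 11.1% of genes showed.

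Cpt2 (chr4:107903982-107923589), the inner-membrane partner of CPT1, ranged from 134 to 208 CPM in CD mice (median 161) and from 99.1 to 161 CPM in HFD mice (median 111) at 20 weeks. 4 of 6 HFD mice were below all CD mice. It fell by 0.49 on the log2 scale, with an SE of 0.18 (limma, adjusted p = 0.0183), which is -0.62 relative to the median of all genes. Without CD mouse 3 at 20 weeks the fall was 0.42 and no longer called. Hadh (chr3:131233419-131272101) ranged from 414 to 561 CPM in CD mice (median 539) and from 332 to 496 CPM in HFD mice (median 369), with 4 of 6 HFD mice below all CD mice. It fell by 0.41 on the log2 scale, with an SE of 0.14 (limma, adjusted p = 0.0157), which is -0.55 relative to the median of all genes. With the mean of the macrophage markers as a covariate in the same fit, neither fall was called, with log2 fold changes of -0.088 (Cpt2) and -0.027 (Hadh). Over all genes tested, 2975 were then called at 20 weeks, against 5894 without the covariate.

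Acadvl (chr11:70010183-70015428), the very long-chain acyl-CoA dehydrogenase, went the same way at 20 weeks but was not called. It ranged from 259 to 406 CPM in CD and from 200.1 to 334 CPM in HFD mice, with 4 of 6 HFD mice below all CD mice. The log2 fold change was -0.34 with an interval from -0.67 to -0.0098 (limma, adjusted p = 0.0729). With TMM factors it was -0.56 and called (adjusted p = 0.0106), and with the macrophage markers as a covariate it was 0.032. Acadm, Hadha and Hadhb were between 0.12 and 0.20 on the log2 scale in CPM and between -0.10 and -0.015 with TMM factors, so no direction is given for them. Acadl (chr1:66830839-66863309) was at -0.096, and at -0.31 and called with TMM factors.

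**Figure D2:**
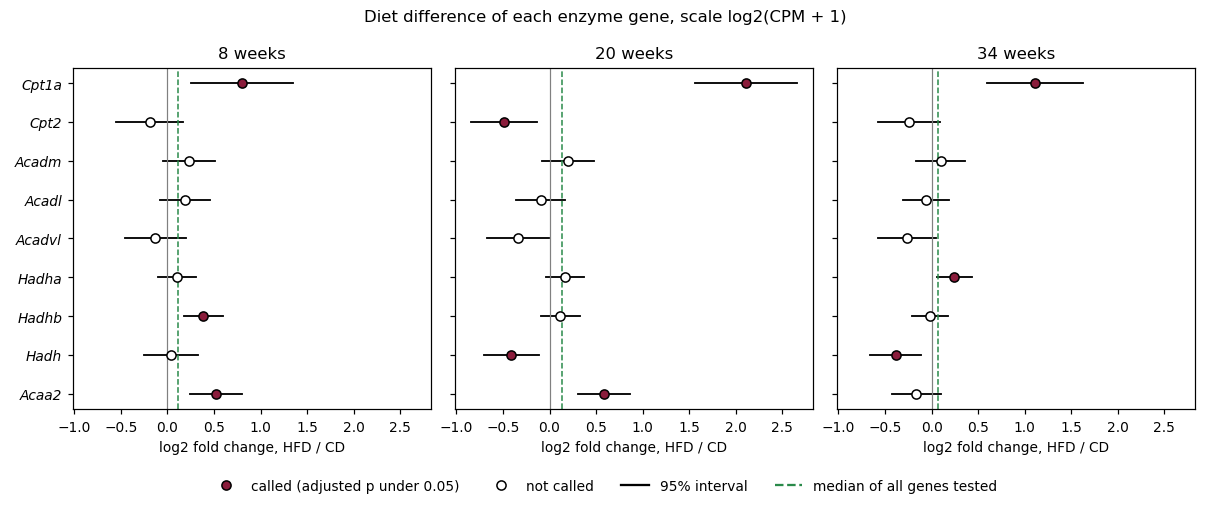
Log2 fold change of HFD over CD on the scale of log2(CPM + 1) (x axis) for the 9 members tested at 8, 20 and 34 weeks, with 95% intervals from limma. Filled points were called at an adjusted p under 0.05 and the dashed line is the median of all genes tested, 0.11, 0.14 and 0.074. Cpt1a lies right of the other members at each time and Cpt2 and Hadh lie left of 0 at 20 weeks.

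After 34 weeks Cpt1a and Hadha were called higher (2 of 9, against 27.5% of all genes tested) and Hadh was called lower (1 of 9, against 15.7%). Cpt1a ranged from 50.03 to 169 CPM in the 8 CD mice (median 106) and from 155 to 275 CPM in the 6 HFD mice (median 218). 5 of 6 HFD mice were above all CD mice, so the groups overlapped in 1 HFD mouse. Its log2 fold change was 1.11 ± 0.25, a 2.16-fold higher level (limma, adjusted p = 0.000891), or 1.04 relative to the median of all genes. No member had diets without overlap at 34 weeks, against 1.47% of all genes tested with HFD above and 0.986% with HFD below.

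Hadh ranged from 420.0 to 726 CPM in CD mice (median 511) and from 267 to 534 CPM in HFD mice (median 406) at 34 weeks. It fell by 0.39 on the log2 scale, with an SE of 0.13 (limma, adjusted p = 0.0199), which is -0.46 relative to the median of all genes, and 3 of 6 HFD mice were below all CD mice. This call was lost without CD mouse 6, HFD mouse 2 or HFD mouse 3 of that time, with log2 fold changes from -0.48 to -0.28 as single mice were dropped, and with the macrophage markers as a covariate, where the value was -0.089. Over all genes tested that covariate left 601 called at 34 weeks, against 4468 without it. Hadha (chr5:30119423-30154980) ranged from 239 to 400.3 CPM in CD mice (median 307) and from 319 to 459 CPM in HFD mice (median 352). The log2 fold change was 0.24 ± 0.092 (limma, adjusted p = 0.0335), or 0.17 relative to the median of all genes, with 2 of 6 HFD mice above all CD mice. It was 0.15 and not called with TMM factors, and the call was also lost without any 1 of 6 mice: CD mice 1, 2, 3 and 8 and HFD mice 4 and 5 of that time. Acaa2, higher in HFD at both earlier times, ranged from 140.2 to 248 CPM in CD and from 123 to 213 CPM in HFD mice, with a log2 fold change of -0.17 (interval -0.43 to 0.096).

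The change of the diet difference with time was tested as an interaction. The diet difference of Cpt1a grew by 1.31 ± 0.38 on the log2 scale from 8 to 20 weeks (limma, adjusted p = 0.0432), and it was the 1 of 9 members called, against 4.49% of all genes tested. In that step Cpt1a changed by -0.70 in CD mice and by 0.61 in HFD mice. Neither change was called (limma, adjusted p = 0.154 and 0.0712). Leaving out any 1 of 19 of the 24 mice at these times ended the call of the diet difference, all 6 CD mice at 8 weeks among them. In edgeR the log2 fold change was 0.70 at 8 and 1.80 at 20 weeks, and the interaction was not called. From 20 to 34 weeks 1 of 9 members was called, against 10.5% of all genes. It was Acaa2, whose diet difference fell by 0.75, with an SE of 0.19 (limma, adjusted p = 0.0107). The level of Acaa2 itself changed by 0.75 in CD mice and by 0.0018 in HFD mice, the latter not called. The diet difference of Cpt1a was lower by 1.00 in that step and not called (interval -1.75 to -0.25, adjusted p = 0.0749). From 8 to 34 weeks 2 of 9 were called, against 28.8% of all genes: Acaa2, whose diet difference fell by 0.69 (limma, adjusted p = 0.00694), and Hadhb, whose diet difference fell by 0.40 (limma, adjusted p = 0.0295). The level of Acaa2 changed by 0.73 in CD and 0.047 in HFD mice, and that of Hadhb by 0.29 and -0.11. Neither change in HFD mice was called.

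The levels were also compared over time within each diet. Each time is a separate set of mice. Weeks on diet, age and any difference in handling between the times therefore cannot be told apart. In CD mice, 0 of 9 members were called between 8 and 20 weeks, against 3.58% of all genes tested and with 4 members at an unadjusted p under 0.05. The level of Cpt1a in CD mice had a log2 fold change of -0.70 ± 0.27 in that step (limma, adjusted p = 0.154). From 20 to 34 weeks Cpt1a rose 2.41-fold in CD mice, by 1.27 ± 0.25 on the log2 scale (limma, adjusted p = 6.79e-05), and Acaa2 rose 1.68-fold, by 0.75 ± 0.13 (limma, adjusted p = 9.56e-06). They were the 2 of 9 members called higher, against 41.1% of all genes. From 8 to 34 weeks 4 of 9 rose in CD mice, against 40.1% of all genes: Cpt1a by 0.57, Acadl by 0.31, Hadhb by 0.29 and Acaa2 by 0.73 on the log2 scale. Relative to the median of all genes, 0.13 in that comparison, these rises were 0.44, 0.18, 0.16 and 0.60. With TMM factors 1 of the 9 was called in that comparison, and without CD mouse 2 at 8 weeks or CD mouse 5 at 34 weeks 2 were called. Over all genes tested 6561 were called with TMM factors and 6696 without them.

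In HFD mice Hadha and Cpt1a were the members called over time. From 8 to 20 weeks Hadha rose by 0.32 ± 0.099 on the log2 scale (limma, adjusted p = 0.0114), the 1 of 9 members called higher against 21.2% of all genes tested, and 0 of 9 were called with TMM factors. TMM factors called 4120 of 10343 genes there. From 20 to 34 weeks 0 of 9 were called in limma, against 30.2% of all genes, with 0 at an unadjusted p under 0.05 and 0 in edgeR. In edgeR 2908 of 10343 genes were called there. From 8 to 34 weeks Cpt1a rose by 0.88 ± 0.27 (limma, adjusted p = 0.00652) and Hadha by 0.34 ± 0.099 (limma, adjusted p = 0.0044), 2 of 9 against 31.7% of all genes. Relative to the median of all genes, 0.063 in that comparison, these rises were 0.82 and 0.28.

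Hadha and Hadhb encode both subunits of 1 complex, and in their ratio within a mouse the scaling cancels but for the pseudocount. At 8 weeks the log2 ratio of Hadha to Hadhb was 0.17 ± 0.025 (SD, n = 6) in CD mice and -0.11 ± 0.12 (n = 6) in HFD mice. CD mice lay between 0.14 and 0.21 and HFD mice between -0.24 and 0.041, so all 6 HFD mice were below all 6 CD mice. The difference was -0.28 (exact permutation test, two-sided, p = 0.00216, adjusted p = 0.00325 over 6 tests). At 20 weeks the ratio was 0.19 ± 0.10 in CD and 0.24 ± 0.12 in HFD mice, a difference of 0.050 (exact permutation test, adjusted p = 0.448). At 34 weeks the ratio was 0.081 ± 0.19 in 8 CD mice and 0.34 ± 0.19 in 6 HFD mice, a difference of 0.26 (exact permutation test, p = 0.0373, adjusted p = 0.0448). The 6 tests include those of Cpt1a to Cpt1b given below, whose small p-values lower this adjusted p, so the call depends on that set of tests. The diets overlapped at 34 weeks, and the call was lost without any 1 of 10 of the 14 mice, with differences between 0.22 and 0.31.

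**Figure D3:**
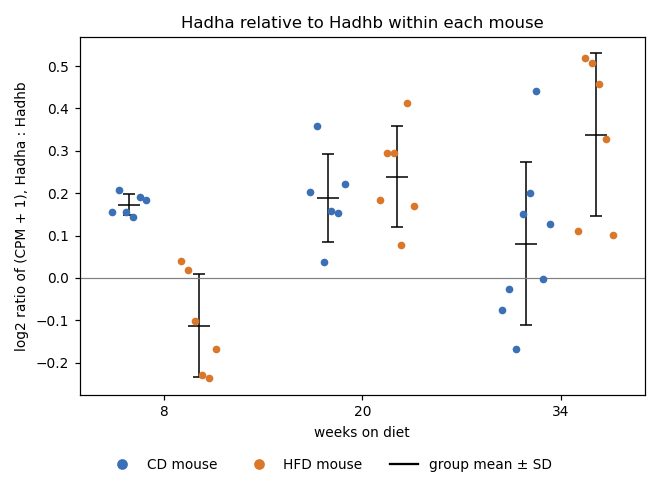
Log2 ratio of Hadha to Hadhb in CPM + 1 (y axis) by weeks on diet (x axis) in each CD mouse (blue) and HFD mouse (orange), with the group mean ± SD (n = 6, and 8 CD mice at 34 weeks). At 8 weeks all HFD mice are below all CD mice, with means of -0.11 and 0.17, and at 34 weeks the means are 0.34 and 0.081 with overlap.

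Cpt1b (chr15:89416405-89425862), the muscle form of CPT1, had 0 to 13 reads per mouse with a median of 2.0, and 3 mice at 34 weeks had none, which allows up to 0.241 to 0.323 CPM (counting error only). In vM21, 81.4% of its exon bases are shared on the same strand with a read-through gene that is not analysed here, and the authors counted only reads that overlap a single gene, so its level cannot be compared with that of Cpt1a. The log2 ratio of Cpt1a to Cpt1b rose with HFD by 0.76, 1.89 and 1.02 at 8, 20 and 34 weeks (exact permutation test, two-sided, adjusted p = 0.00325 at each time). With a pseudocount of 1 CPM this ratio follows Cpt1a, whose own log2 fold changes were 0.80, 2.11 and 1.11.

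Macrophage markers also varied with Cpt1a within the groups. Over the 38 mice, deviations of Cpt1a from its group means had a Pearson r of 0.68 with those of the mean macrophage marker and of -0.56 with those of the mean adipocyte marker. For Hadh these were -0.60 and 0.79, for Cpt2 -0.50 and 0.67 and for Acadvl -0.51 and 0.59, whereas Acaa2 had 0.090 and 0.062. The values share libraries, and no test was made. With the mean of the macrophage markers as a covariate the log2 fold change of Cpt1a was 0.29 at 8 weeks (limma, adjusted p = 0.302), 1.27 at 20 weeks, which was called, and 0.46 at 34 weeks (adjusted p = 0.226). That of Acaa2 was 0.49 at 8 and 0.53 at 20 weeks and that of Hadhb 0.46 at 8 weeks, each still called. Over all genes tested the covariate lowered the number called from 4648 to 3918 at 8 weeks. The number called went from 5894 to 2975 at 20 weeks and from 4468 to 601 at 34 weeks. A covariate that itself differs between the diets also takes up diet, and how much of the Cpt1a level came from macrophages was not tested.

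**Figure D4:**
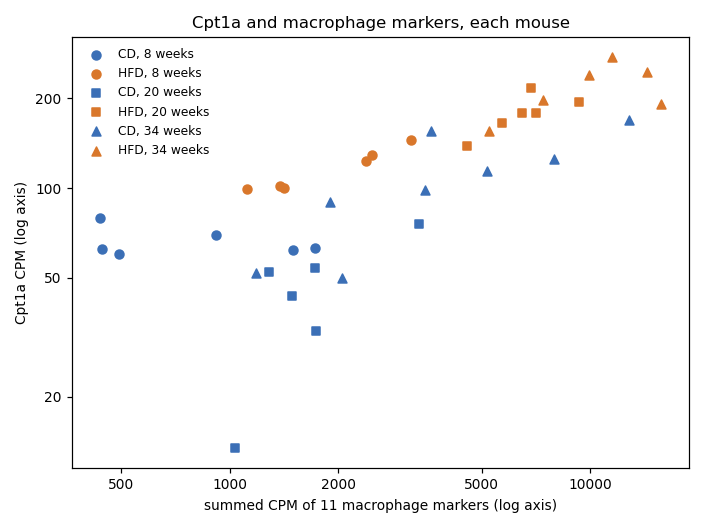
Cpt1a in CPM (y axis, log) against the summed CPM of 11 macrophage markers (x axis, log) in each of 38 mice, CD in blue and HFD in orange, with circles, squares and triangles for 8, 20 and 34 weeks. The CD mouse with the most macrophage markers, 12800 CPM at 34 weeks, also had the highest Cpt1a of all CD mice, 169 CPM.

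Within the groups the members formed blocks. Among the 36 pairs of members, the Pearson r of the deviations from the group means over 38 mice had a median of 0.53, and 20 pairs were above 0.5. The closest were Cpt2 with Hadh (0.91), Acadvl with Hadh (0.91) and Cpt2 with Acadvl (0.90), the members with the lowest fold changes at 20 weeks, and then Acadm with Acadl (0.84). All 7 pairs below 0 held Cpt1a, down to -0.64 with Acadvl. Hadha and Hadhb, which share the stretch printed above, had 0.65. Of the genes outside the list, those whose deviations were most like the mean of the members were Adh1 (0.86), Oplah (0.83), Slc25a20 (0.83), Etfb (0.82), Etfa (0.82), Coq3 (0.82), Decr1 (0.81), Acads (0.80), Eci2 (0.79) and Coq5 (0.78), given as a description over 38 mice that share their libraries.

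**Figure D5:**
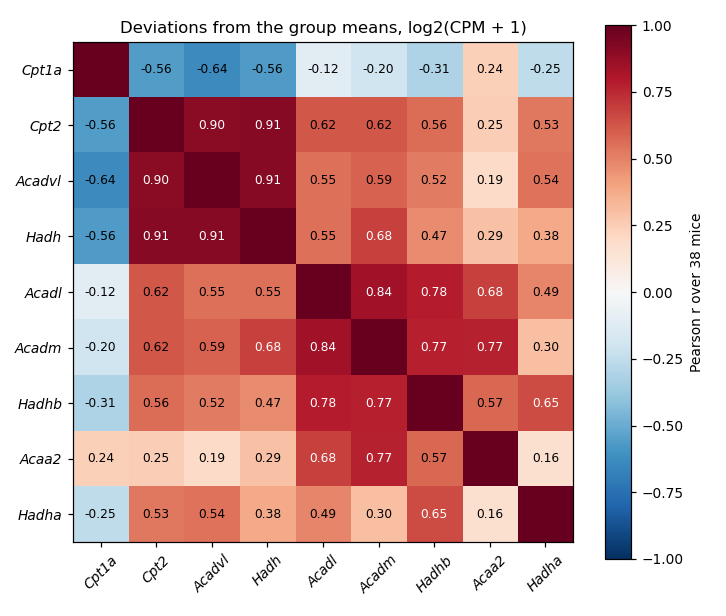
Pearson r over 38 mice between the deviations of the 9 members tested from their group means on the scale of log2(CPM + 1) (both axes list genes, colour and number give r). Cpt2, Acadvl and Hadh form a block at 0.90 to 0.91, and Cpt1a is negative with each member but Acaa2.

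At 20 and 34 weeks more of the other mitochondrial beta-oxidation enzymes fell than rose. The counts of this and the following lists stand beside the shares of all genes tested, of which 29.8% rose and 15.1% fell at 8 weeks, 38.3% rose and 18.7% fell at 20 weeks and 27.5% rose and 15.7% fell at 34 weeks. Of the 14 other mitochondrial beta-oxidation enzymes, 2 rose and 2 fell at 8 weeks, 1 rose and 9 fell at 20 weeks and 0 rose and 7 fell at 34 weeks, with a median log2 fold change of -0.15, -0.60 and -0.33. Acot2, a mitochondrial acyl-CoA thioesterase, fell by 1.12 ± 0.16 at 8 weeks on the log2 scale. Hsd17b10, a short-chain hydroxyacyl-CoA dehydrogenase, fell by 1.30 ± 0.18 at 20 weeks. Acad10, of the acyl-CoA dehydrogenase family, fell by 0.89 ± 0.18 at 8 and by 1.18 ± 0.18 at 20 weeks, and its relative Acad12 fell by 0.78 ± 0.15 at 34 weeks. Echs1, the enoyl-CoA hydratase of short chains, fell by 0.61 ± 0.15 at 34 weeks. Of the 3 genes of the electron transfer flavoprotein and its dehydrogenase, 0 were called at 8 and 20 weeks and at 34 weeks Etfb fell by 0.39 ± 0.15, a call that was lost without any 1 of 6 mice of that time: CD mice 2, 3, 4 and 6 and HFD mice 2 and 3.

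On the way into the mitochondrion, 4 genes of carnitine transport were tested and none rose. 2 fell at 8 and at 20 weeks and 1 at 34 weeks, where 15.1%, 18.7% and 15.7% of all genes fell. Slc22a5, the carnitine transporter of the plasma membrane, fell at 8 and 20 weeks, with log2 fold changes of -1.43 ± 0.24 and -1.24 ± 0.24. Crat, the carnitine acetyltransferase, fell at the 3 times, with -0.44 ± 0.15, -0.95 ± 0.15 and -0.50 ± 0.14, and the call at 8 weeks was lost without CD mouse 3 or HFD mouse 3, 4 or 6 of that time. Of 7 acyl-CoA synthetases, which activate fatty acids, 1 rose and 4 fell at 8 and at 20 weeks, and 3 rose and 1 fell at 34 weeks. Acsm3, a medium-chain synthetase, fell at the 3 times with log2 fold changes of -3.54 ± 0.58, -5.18 ± 0.58 and -1.52 ± 0.54, the last lost without CD mouse 6 or HFD mouse 1 of that time. Acsm5, of the same family, fell at 8 and 20 weeks with -1.28 ± 0.27 and -1.72 ± 0.27. Acsl4, which prefers arachidonate, was called lower at 8 and 20 weeks and rose by 0.77 ± 0.21 at 34 weeks.

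Of the 3 genes that make or remove malonyl-CoA, the inhibitor of CPT1, 2 fell at 8 weeks and 3 at 20 and 34 weeks, against 15.1%, 18.7% and 15.7% of all genes. The falls are of genes with opposite roles: Acaca and Acacb make malonyl-CoA and Mlycd, malonyl-CoA decarboxylase, removes it. Acaca, the acetyl-CoA carboxylase of lipogenesis, changed by -1.14 ± 0.37 at 8, -2.13 ± 0.37 at 20 and -2.28 ± 0.35 at 34 weeks (log2). Acacb, the form at the mitochondrial membrane, had -1.54 ± 0.41, -1.78 ± 0.41 and -1.81 ± 0.38. Mlycd, named here after its values were seen, had 0.039 ± 0.15 at 8 weeks, which was not called, and fell at 20 and 34 weeks with -0.47 ± 0.15 and -0.56 ± 0.14 (limma, adjusted p = 0.00654 and 0.00168). With macrophage markers as a covariate Acaca was not called at 8 weeks and Acacb at none of the 3 times.

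Among 22 transcriptional regulators of the pathway, 0 rose and 9 fell at 8 weeks, 1 rose and 8 fell at 20 weeks and 2 rose and 8 fell at 34 weeks. Over all genes 29.8%, 38.3% and 27.5% rose and 15.1%, 18.7% and 15.7% fell. At 8 weeks Ppargc1a, the coactivator of mitochondrial genes, fell by 0.84 ± 0.21 on the log2 scale and the nuclear receptor Ppara by 0.80 ± 0.22. Ppard, another receptor of the family, fell by 1.01 ± 0.16 at 20 weeks, Lpin1, a coregulator and phosphatidate phosphatase, by 0.83 ± 0.22 at 20 and by 0.82 ± 0.21 at 34 weeks, and the transcription factor Klf15 by 1.22 ± 0.25 at 34 weeks. Of 11 PPAR target genes outside the enzymes, 4 rose and 1 fell at 8 weeks, 7 rose and 1 fell at 20 weeks and 4 rose and 2 fell at 34 weeks. The mitochondrial carrier Ucp2 rose by 1.62 ± 0.43, 2.79 ± 0.43 and 1.51 ± 0.40. Aqp7, the glycerol channel, rose by 1.00 ± 0.15 at 8 weeks.

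Peroxisomal beta-oxidation, which shortens very long chains, had 4 of 14 genes higher and 3 lower at 8 weeks, 3 higher and 5 lower at 20 weeks and 2 higher and 5 lower at 34 weeks. The counts at 8 weeks were near the shares of all genes, 29.8% higher and 15.1% lower, and at 20 and 34 weeks 38.3% and 27.5% of all genes were higher and 18.7% and 15.7% lower. Acot4, a peroxisomal thioesterase, had log2 fold changes of -1.82 ± 0.23, -2.10 ± 0.23 and -0.78 ± 0.21. The thiolase Acaa1b rose by 1.21 ± 0.22 at 8 weeks and was called lower at 34 weeks. Of 22 genes of pyruvate dehydrogenase and the TCA cycle, 3 rose and 2 fell at 8 weeks, 2 rose and 14 fell at 20 weeks and 0 rose and 11 fell at 34 weeks. Idh3a, a subunit of isocitrate dehydrogenase, rose by 0.85 ± 0.12 at 8 weeks. It was also called higher at 20 weeks but lower at 34 weeks. The succinyl-CoA ligase subunit Suclg2 fell by 0.83 ± 0.17 at 8 and by 1.14 ± 0.17 at 20 weeks, and the pyruvate dehydrogenase subunits Pdha1 and Pdhb fell by 0.75 ± 0.19 and 0.79 ± 0.19 at 34 weeks, Pdha1 also by 0.85 ± 0.20 at 20 weeks. Each value named in these lists, except that of Mlycd at 8 weeks, passed limma's test at an adjusted p under 0.05 over all genes tested. The rule for naming genes chose 48 such values, not all of them printed here, and with the macrophage markers as a covariate 22 of the 48 were no longer called. Over all genes tested the number called with that covariate also fell, from 4648 to 3918 at 8 weeks. It fell from 5894 to 2975 at 20 weeks and from 4468 to 601 at 34 weeks. The adipocyte markers fell over the same times: 1 of 12 rose and 2 fell at 8 weeks, 1 rose and 9 fell at 20 weeks and 0 rose and 11 fell at 34 weeks, with a median of -0.29, -0.72 and -0.64 on the log2 scale.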

How the data were processed

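Perigonadal adipocyte RNA of 38 mice was analysed. According to the submitters' processing notes and the methods, reads of a stranded polyA library were aligned to mm10 (GRCm38) with STAR (versions 2.5 and 2.5.2b are named) and counted per gene (all exons merged, GENCODE vM2) with featureCounts of Subread 1.5.1. edgeR and limma are also named. The deposited values are the authors' CPM, 1 column per mouse with 3 technical replicates merged. The columns total 1000000 each, so the TMM factors that the methods name do not show in them. Divided by the value of a single read, 100.0% of the values came out whole (within 0.1 reads), and these reads were the counts for edgeR and for scaling factors.

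CPM were transformed to log2(CPM + 1), genes with a mean above 2.0 were kept, and the 6 groups were fitted together in limma 3.58.1 (R 4.3.3) with a mean-variance trend, 32 residual degrees of freedom, two-sided tests and Benjamini-Hochberg adjustment over 10343 genes at 0.05. Fold changes on this scale understate those of low genes. Log2 ratios of 2 members were compared by exact permutation tests over mice (scipy 1.17.1). The fits were tested on simulated data. Alternatives were a pseudocount of 0.5, no filter, a filter above 4.0, TMM and median-of-ratios factors, edgeR 4.0.16, a replicate block, array weights, a macrophage covariate, separate fits of the groups compared, and each mouse left out. The members and lists were chosen with earlier results of these data known. All members were named, and from each pathway list the 2 genes with the largest absolute fold change among those called at each time; some of these are not reported here. Etfbkmt, Etfrf1 and the macrophage marker Adgre1 were not analysed here. Mouse numbers name mice and are not known to pair them. No 2 of 103 pairs of mice within a group agreed within sampling noise, the lowest chi-square per degree of freedom being 9.99 (genes of 10 or more reads in the pair). A read equals 0.0646 to 0.108 CPM. Without molecular identifiers, reads can be copies of the same molecule. Gene positions are from RefSeq (GRCm38.p6), exon lengths and overlaps from GENCODE vM21, which may differ from vM2.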

Additional observations from a re-analysis of the deposited data

Results flagged for a closer look

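The change of the diet difference with time was called for 3 members. For Cpt1a the log2 diet difference was larger at 20 than at 8 weeks by 1.31 (limma, adjusted p = 0.0432). For Acaa2 the change from 20 to 34 weeks was -0.75 (limma, adjusted p = 0.0107) and from 8 to 34 weeks -0.69 (limma, adjusted p = 0.00694), and for Hadhb the change from 8 to 34 weeks was -0.40 (limma, adjusted p = 0.0295).

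Of 60 sets of 1 member and 1 group, 5 held a mouse set apart from the rest by more than Dixon's 95% value, and chance alone flags about 1 in 20 such groups. CD mouse 6 at 8 weeks was the lowest in Acadvl, with 224 CPM against 254 to 273 in the others (a gap of 0.638 of the range), and in Hadh, with 385 CPM against 442 to 468 (0.702). CD mouse 3 at 20 weeks was the highest in Hadhb, with 370.2 CPM against 253 to 287 (0.671). For Cpt1b, with few reads, HFD mouse 3 at 8 weeks stood at 0.323 CPM (0.645 of the range) and CD mouse 7 at 34 weeks at 0.730 CPM (0.568).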

How the results depend on the processing

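The count of members called per comparison stayed within 1.5 times its value with a pseudocount of 0.5 and with a filter above 4.0. With no filter on low values and with the replicate block, Cpt1a was no longer called for the diet difference at 20 against 8 weeks (0 members), and edgeR also gave 0 there. Over all genes these settings called 405 of 21166, 374 of 10343 and 484 of 10343 there, against 464 in the main fit. With TMM factors, 1 member was called in CD 34 against 8 weeks, in HFD 34 against 8 weeks and in the diet difference at 34 against 8 weeks, and 0 in HFD 20 against 8 weeks. Median-of-ratios factors gave 1 in the first 3 of these, and edgeR gave 2, 1, 1 and 0. Of 10343 genes the main fit called 6696, 5432, 2982 and 3772 in these comparisons, in the same order. TMM factors called 6561, 5420, 2996 and 4120. Median-of-ratios factors called 6596, 5435, 3004 and 3871, and edgeR 6650, 5424, 3058 and 4048. Array weights gave 6 in HFD against CD at 8 weeks, 3 in CD 20 against 8 weeks and in HFD 20 against 8 weeks, 1 in HFD 34 against 20 weeks, and 4 in the diet difference at 20 against 8 and at 34 against 20 weeks. Of 10343 genes array weights called 7032, 1543, 6392, 5016, 4263 and 3407 in these comparisons, in that order. The main fit called 4648, 370, 3772, 3126, 464 and 1089. The macrophage covariate gave 2 and 0 in HFD against CD at 20 and 34 weeks, 2 and 7 in CD 20 and 34 against 8 weeks, 0 and 1 in HFD 20 and 34 against 8 weeks, and 2 in the diet difference at 34 against 20 weeks. Of 10343 genes it called 2975, 601, 944, 5504, 389, 1428 and 1647 in these comparisons, in that order. The main fit called 5894, 4468, 370, 6696, 3772, 5432 and 1089. Fits of the compared groups alone gave 1 in HFD against CD at 34 weeks and in CD 20 against 8 weeks, and 2 in HFD 20 against 8 weeks and in the diet difference at 20 against 8 weeks. Of 10343 genes they called 2457, 522, 5066 and 2698 there, against 4468, 370, 3772 and 464 in the main fit. Leaving out each mouse in turn moved the counts to 2 to 5 in CD 34 against 8 weeks, 1 to 2 in HFD 20 against 8 weeks (without CD mouse 3 at 20 weeks), and 0 to 1, 1 to 2 and 1 to 3 in the diet differences at 20 against 8, 34 against 20 (without CD mouse 1 at 20 or 4 or 6 at 34 weeks) and 34 against 8 weeks (without CD mouse 6 or HFD mouse 3 or 4 at 8 or HFD mouse 2 or 3 at 34 weeks). The ratio of Hadha to Hadhb at 34 weeks ranged from 0.22 to 0.31 and lost its call in 10 of 14 fits. Signs turned for member values that were not called. With TMM factors these were Acadm (-0.015), Hadha (-0.051) and Hadhb (-0.10) at 20 weeks and Hadha (-0.0058) and Hadh (-0.071) at 8 weeks. With median-of-ratios factors they were Hadha (-0.0033) and Hadhb (-0.053) at 20 weeks and Hadha (-0.014) and Hadh (-0.079) at 8 weeks, and in edgeR Hadha (-0.038), Hadhb (-0.093), Hadha (-0.0055) and Hadh (-0.064) in the same order. With array weights they were Cpt2 (0.028), Acadl (0.13) and Hadhb (0.13) at 34 weeks and Hadh (-0.060) at 8 weeks. With the macrophage covariate they were Cpt2 at 8 (0.048) and 34 weeks (0.066), Acadvl at 8, 20 and 34 weeks (0.094, 0.032 and 0.027) and Hadhb at 34 weeks (0.078). Leaving out 1 mouse turned Acadl (-0.12 to 0.047) and Hadhb (-0.081 to 0.060) at 34 weeks and Hadh (-0.015 to 0.074) at 8 weeks. The cause of these changes was not tested. Of 18 pairs with the same mouse number, 8 had a correlation of deviations over 0.1 (range of all 18 pairs -0.51 to 0.53). 2 mice correlated best with their own number. Such correlations cannot decide whether the numbers pair the mice. The replicate block otherwise ended the call of Hadha at 34 weeks (0.24, adjusted p = 0.0617) and no other call named. Members at the level of Cpt1b are below what this depth can compare.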
